A study of Homo sapiens with 27 samples.

Results

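The genes described here encode the contractile actin cytoskeleton: the actin ACTA2, the tropomyosins TPM1, TPM2 and TPM4, the filament cross-linker ACTN1, the calponin family members CNN1, CNN2 and TAGLN, the actin and myosin binder CALD1, and the myosin regulatory light chain MYL9. They were picked out by gene symbol and are 10 of the 40487 rows of the expression table. Each had 1 row. Expression was measured by RNA-seq of polyadenylated RNA in MCF10A, a human line of mammary epithelium that is established in culture and does not form tumours. All cells grew on collagen-coated plates in medium holding hydrocortisone, cholera toxin, insulin, horse serum and 20 ng/ml of epidermal growth factor (EGF), and then spent 18 h without growth factors. Cells then received phosphate-buffered saline (PBS), EGF, the cytokine oncostatin M (OSM) or transforming growth factor beta (TGFB), each ligand at 10 ng/ml, or a combination: EGF+OSM, EGF+TGFB, OSM+TGFB or EGF+OSM+TGFB. These 8 groups were collected at 24 h, and a further group, T0, at 0 h with no treatment. Each group had 3 libraries, 27 in all. The labels do not say that replicates were separate cultures, so p-values measure the spread between these libraries, which may be technical. The question was whether, on the log2 scale, the responses of these genes to combined ligands are the sum of their responses to single ligands.

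Actin filaments bundled with myosin form stress fibres, the structures by which epithelial cells pull on their surroundings. Tropomyosins lie along the filament and govern which proteins bind it, alpha-actinin (ACTN1) cross-links filaments, calponins and caldesmon bind actin and restrain or tune the myosin motor, and phosphorylation of the light chain MYL9 switches the motor on. Several of these genes are known targets of serum response factor (SRF), which acts with the actin-sensing MRTF coactivators on a DNA element called the CArG box, and TGFB is known to raise many of them in epithelial cells and fibroblasts.

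Library totals ran from 30.1 to 52.9 M (mega) counts around a median of 39.5 M, and levels are counts per M (CPM) after scaling between libraries. All 8 markers of basal mammary epithelium reached a mean of 1 CPM in every group, and together they summed to 11283 to 28683 CPM per library. The 7 smooth muscle markers together summed to 1.26 to 3.58 CPM per library over all groups, and MYOCD, the coactivator that defines that lineage, had at most 1 count in any library. Of 7 fibroblast markers, 2 (COL1A1 and DCN) reached 1 CPM. Their list summed to 129 to 133 CPM in PBS, 204 to 214 CPM in TGFB, 30.96 to 36.04 CPM in EGF and 76.5 to 96.9 CPM in EGF+TGFB. The part of these markers in the results was not tested. The sums hold opposite moves: from PBS to EGF+TGFB, DCN went from 91.5 ± 5.37 to 11.02 ± 1.23 CPM and COL1A1 from 38.7 ± 3.502 to 75.3 ± 9.08 CPM (SD, n = 3). In bulk RNA, fewer cells with a transcript and less of it per cell cannot be told apart. Replicate 3 of EGF+TGFB was the lowest of its group for 9 of the 9 tested contractile genes, and results whose call changes without it are given with both values.

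Of the 10 genes, 9 passed the filter on low counts and were tested. CNN1, the calponin of differentiated smooth muscle, did not pass. The 10 genes together took 0.105% ± 0.00405 of all counts in PBS (SD, n = 3), 0.296% ± 0.0215 in EGF, 0.232% ± 0.0170 in OSM and 0.245% ± 0.00700 in TGFB. With pairs of ligands the share was 0.310% ± 0.0188 in EGF+OSM, 0.472% ± 0.0219 in OSM+TGFB and 0.658% ± 0.0739 in EGF+TGFB, and it was 0.584% ± 0.0178 with all 3 ligands. The groups in which these genes took most of the library were those with TGFB and at least 1 other ligand.

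A gene was called changed at an adjusted p under 0.05, by the quasi-likelihood test of edgeR, with Benjamini-Hochberg adjustment for all 16611 rows tested. After TGFB alone, 9 of the 9 tested genes rose against PBS, where 18.9% of all rows rose and 14.7% fell (33.5% changed). After EGF 6 rose and 0 fell, where 33.8% of all rows rose and 37.0% fell (70.8% changed). After OSM 4 rose and 1 fell, against 32.4% and 28.5% of all rows (61.0% changed). After EGF+OSM 6 rose and 2 fell, against 36.6% and 38.4% of all rows (75.0% changed). In each of the 3 combinations with TGFB, 8 rose and 0 fell. Among all rows 35.0% rose and 36.3% fell in EGF+TGFB (71.3% changed), 33.1% and 30.5% in OSM+TGFB (63.5% changed), and 36.6% and 35.5% in EGF+OSM+TGFB (72.1% changed). The median log2 fold change of the 9 tested genes was 1.32 after TGFB, 1.71 after EGF, 0.40 after OSM, 1.19 after EGF+OSM and 2.64 after EGF+TGFB. Over all rows those medians were -0.01, -0.07, 0.00, -0.04 and -0.05. All of these comparisons use the same 3 PBS libraries, so they are not independent of each other. A called rise of at least 2-fold was seen in 5 of the 9 genes after EGF, 3 after OSM, 6 after TGFB, 5 after EGF+OSM, 8 after EGF+TGFB, 7 after OSM+TGFB and 8 after all 3 ligands. In the same order, 11.5%, 9.99%, 3.88%, 14.8%, 13.3%, 12.5% and 14.4% of all rows rose that far. TPM1 was the 1 gene to fall by 2-fold or more, in EGF+OSM, where 19.4% of all rows did.

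**Figure D1:**
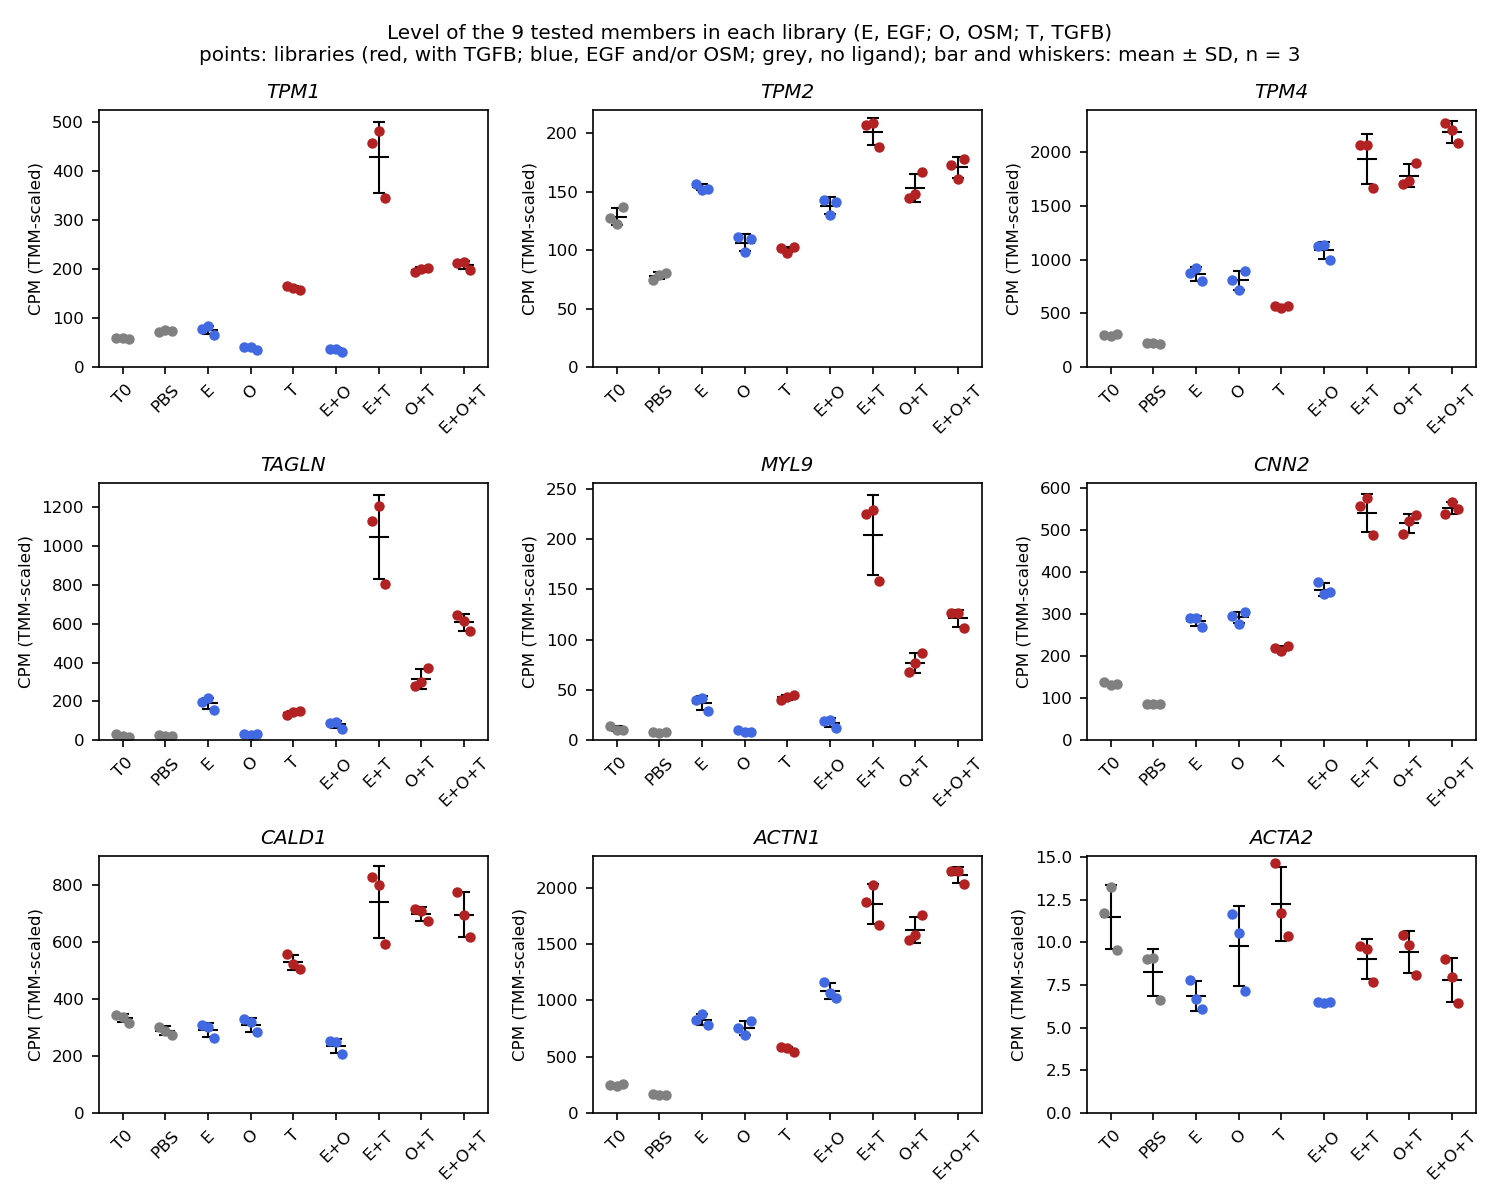
Level (CPM, linear axis from 0) of each of the 9 tested genes in every library, by group; points are libraries, bars and whiskers are the mean ± SD of 3 libraries. ACTN1, TPM4 and CNN2 step up from PBS through single ligands to the combinations with TGFB, TAGLN and MYL9 peak in EGF+TGFB, and ACTA2 stays between 6.11 and 14.6 CPM in all 27 libraries.

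The group in which each gene was lowest or highest sorted the genes into a few patterns, given here as a description. ACTN1, TPM4 and CNN2 had their lowest mean in PBS and their highest with all 3 ligands. Their difference between all 3 ligands and EGF+TGFB was small, at 0.19, 0.18 and 0.03 on the log2 scale, none of them called. For CNN2 it was -0.07 without EGF+TGFB replicate 3, so its highest group is not settled. TAGLN, MYL9 and TPM2 were also lowest in PBS but highest in EGF+TGFB. TPM1 and CALD1 were lowest in EGF+OSM and highest in EGF+TGFB, and ACTA2 was lowest in EGF+OSM and highest in TGFB alone.

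Promoter sequence was read for these genes because members of the panel moved together. RefSeq promoter windows (GRCh38.p14, 250 bases before to 50 after each start) were found by symbol for 8 of the 10 genes (all but TAGLN and MYL9), 18 windows in all. The CArG box (searched by its consensus on both strands) lay in 3 of the 18 windows, against 1.29% of all 35116 windows, and the 3 belonged to ACTN1, TPM4 and CNN2. These genes had 4, 3 and 1 windows, and the box lay in 1 window of each. The search allowed no mismatch, so looser forms of the box in the other genes would be missed. The 250 bases before each of those starts are shown 5′ to 3′ on the gene's strand, with the CArG box in capitals:
TPM4: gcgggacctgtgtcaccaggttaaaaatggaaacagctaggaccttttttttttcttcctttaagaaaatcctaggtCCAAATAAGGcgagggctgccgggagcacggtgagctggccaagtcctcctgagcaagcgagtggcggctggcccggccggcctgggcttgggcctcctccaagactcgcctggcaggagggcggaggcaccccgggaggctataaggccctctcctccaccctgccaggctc
CNN2: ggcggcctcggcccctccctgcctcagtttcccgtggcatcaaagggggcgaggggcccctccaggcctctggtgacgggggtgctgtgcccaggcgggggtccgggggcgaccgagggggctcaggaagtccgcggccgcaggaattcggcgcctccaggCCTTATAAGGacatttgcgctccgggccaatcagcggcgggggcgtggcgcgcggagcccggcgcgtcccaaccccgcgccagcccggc
ACTN1: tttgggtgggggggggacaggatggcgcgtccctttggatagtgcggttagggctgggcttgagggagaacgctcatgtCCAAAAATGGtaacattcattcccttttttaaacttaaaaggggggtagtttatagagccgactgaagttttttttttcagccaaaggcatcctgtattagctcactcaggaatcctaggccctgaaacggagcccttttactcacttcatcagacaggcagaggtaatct
They lie at chr19:16067288-16067537 (plus strand), chr19:1026358-1026607 (plus strand) and chr14:68977567-68977816 (minus strand). Those of TPM4 and ACTN1 are inside the gene spans given below, and counts per gene do not show which start was in use. The box began 173 bases before the start in TPM4, 89 in CNN2 and 171 in ACTN1. Other motifs were counted in the same windows on both strands. CATTCC, the core bound by TEAD factors, was in 4 of 18 windows and 14.03% of all. CAGAC, a short SMAD-type element, was in 11 of 18 and 45.3% of all, and TGANTCA, the AP-1 element, was in 1 of 18 (CALD1) and 7.71% of all. A match is a description of these letters and shows no binding.

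ACTA2 encodes alpha-smooth-muscle actin, the actin of myofibroblasts and myoepithelium (ENSG00000107796, GENCODE v44 on GRCh38, chr10:88935074-88991339, minus strand, the whole gene span). Its level was 9.01, 9.06 and 6.63 CPM in the 3 PBS libraries and 14.6, 11.7 and 10.4 CPM in the 3 TGFB libraries. It was 7.80, 6.67 and 6.11 CPM in EGF, 11.7, 10.5 and 7.16 CPM in OSM and 11.7, 13.2 and 9.54 CPM in T0. The combinations held 6.53, 6.43 and 6.47 CPM (EGF+OSM), 9.77, 9.63 and 7.68 CPM (EGF+TGFB), 10.4, 9.81 and 8.07 CPM (OSM+TGFB) and 9.01, 7.98 and 6.43 CPM (EGF+OSM+TGFB). TGFB libraries lay above all PBS libraries, but in the order of the 9 groups each overlapped its neighbour. The rise after TGFB was 0.57 ± 0.17 on the log2 scale (SE, edgeR adjusted p = 0.0131), and the call was lost without TGFB replicate 1 or PBS replicate 3 (adjusted p up to 0.0998). In the other 6 treatments the difference from PBS was not called, with values from -0.35 (EGF+OSM, 95% interval -0.70 to 0.00) to 0.25 (OSM, -0.10 to 0.59). A fit with a term for replicate number (a replicate block) called it lower after EGF (edgeR adjusted p = 0.0258) and EGF+OSM. The same fit called it higher after OSM. EGF+OSM was also called with upper-quartile scaling, with only the groups compared and without PBS replicate 3, and OSM without OSM replicate 3. The highest group mean, 12.2 CPM, was 1.89 times the lowest, 6.48 CPM.

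Among the tropomyosins, TPM1 (ENSG00000140416, chr15:63042620-63071915, plus strand) was moved in opposite directions by OSM and TGFB. Its level was 72.3, 76.6 and 74.4 CPM in PBS, 78.0, 83.7 and 66.5 CPM in EGF, 40.4, 41.1 and 35.7 CPM in OSM and 165, 162 and 158 CPM in TGFB. Pairs gave 37.1, 37.4 and 30.2 CPM (EGF+OSM), 458, 481 and 346 CPM (EGF+TGFB) and 194, 201 and 202 CPM (OSM+TGFB). The 3 ligands together gave 212, 214 and 199 CPM, and T0 held 59.5, 59.9 and 58.3 CPM. OSM and EGF+OSM libraries were below every PBS library, and every library with TGFB was above every library without it. On the log2 scale TPM1 fell by 0.93 ± 0.098 after OSM (SE, edgeR adjusted p = 1.90e-08) and rose by 1.12 ± 0.096 after TGFB (adjusted p = 2.61e-09). EGF alone left it at 0.03 (95% interval -0.16 to 0.22, adjusted p = 0.778), whereas EGF+TGFB raised it 5.75-fold (2.52 ± 0.099, adjusted p = 2.64e-16). The mean in EGF+TGFB was 12.3 times that in EGF+OSM, the lowest group, whose range overlapped that of OSM.

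TPM2 (ENSG00000198467, chr9:35681992-35690056, minus strand) had the narrowest range of the 8 genes that rose in every combination with TGFB. Its levels were 75.0, 78.9 and 80.9 CPM in PBS, 102, 98.0 and 103 CPM in TGFB, 111, 98.5 and 109.9 CPM in OSM and 157, 152 and 153 CPM in EGF. They were 143, 130.1 and 142 CPM in EGF+OSM, 145, 148 and 167 CPM in OSM+TGFB, 207, 209 and 188 CPM in EGF+TGFB and 173, 161 and 179 CPM with all 3 ligands. Every treated library was above every PBS library, and T0 (127, 122 and 137 CPM) was too. The TGFB and OSM groups overlapped, as did T0 and EGF+OSM and OSM+TGFB and EGF. EGF was the strongest single ligand for TPM2, at 0.98 ± 0.061 (SE, log2 scale, edgeR adjusted p = 8.64e-13), with 0.45 ± 0.061 after OSM and 0.37 ± 0.061 after TGFB. EGF+TGFB gave 1.36 ± 0.061, a 2.57-fold rise.

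TPM4 (ENSG00000167460, chr19:16067021-16103002, plus strand) rose after every treatment. PBS libraries held 228, 229 and 219.9 CPM, below all others, and T0 held 301, 293 and 311 CPM. Single ligands brought it to 571, 550.02 and 569 CPM (TGFB), 810.1, 721 and 892 CPM (OSM) and 879.8, 922 and 799 CPM (EGF). Combinations brought it to 1127, 1133 and 998 CPM (EGF+OSM), 1702, 1736 and 1901 CPM (OSM+TGFB), 2065, 2070.4 and 1665 CPM (EGF+TGFB) and 2275, 2208 and 2082 CPM (EGF+OSM+TGFB). OSM overlapped EGF and OSM+TGFB overlapped EGF+TGFB, while all other neighbours in the order were apart. The log2 fold changes were 1.32 ± 0.080 after TGFB, 1.84 ± 0.081 after OSM, 1.94 ± 0.081 after EGF and 3.28 ± 0.085 after all 3 (SE, edgeR adjusted p from 3.55e-12 for TGFB to 4.78e-20 for all 3).

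ACTN1, the non-muscle alpha-actinin of stress fibres and focal adhesions (ENSG00000072110, chr14:68874128-68979440, minus strand), followed the same order of groups as TPM4. It was at 167, 162 and 156 CPM in PBS and 249, 242 and 254 CPM in T0. It reached 583, 578 and 546 CPM in TGFB, 755, 694 and 822 CPM in OSM and 824, 877 and 783 CPM in EGF. With combinations it reached 1159.5, 1062 and 1022 CPM (EGF+OSM), 1535, 1579 and 1759 CPM (OSM+TGFB), 1873, 2023 and 1669 CPM (EGF+TGFB) and 2149, 2153 and 2032 CPM (EGF+OSM+TGFB). Every treated library was above every PBS and T0 library. OSM overlapped EGF, and OSM+TGFB overlapped EGF+TGFB. The rises on the log2 scale were 1.81 ± 0.072 after TGFB, 2.22 ± 0.072 after OSM, 2.35 ± 0.073 after EGF and 3.70 ± 0.077 after all 3 ligands (SE, edgeR adjusted p from 3.24e-15 for TGFB to 1.37e-21 for all 3). The last is a 13.0-fold rise.

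In the calponin family, CNN1 (ENSG00000130176, chr19:11538767-11550323, plus strand) had 0 to 5 counts per library and 27 counts over all 27 libraries. It was at 0 in 15 libraries, including all 9 of OSM, TGFB and EGF+OSM, and no difference is detectable at this depth. CNN2, its non-muscle relative (ENSG00000064666, chr19:1026586-1039068, plus strand), was abundant and rose after every treatment. It was at 85.9, 87.2 and 87.2 CPM in PBS, 139, 132 and 133 CPM in T0, 219.6, 213 and 224 CPM in TGFB, 289.6, 289.8 and 269.6 CPM in EGF and 295, 277 and 304 CPM in OSM. Combinations held 375, 347 and 353 CPM (EGF+OSM), 491, 520.4 and 536 CPM (OSM+TGFB), 558, 576 and 489 CPM (EGF+TGFB) and 539, 568 and 549 CPM (EGF+OSM+TGFB). EGF overlapped OSM, and EGF+TGFB overlapped both OSM+TGFB and EGF+OSM+TGFB. These last 3 groups stood above all others. The log2 fold changes were 1.34 ± 0.054 after TGFB, 1.71 ± 0.054 after EGF, 1.75 ± 0.054 after OSM and 2.67 ± 0.056 after all 3 (SE, edgeR adjusted p of 5.11e-15, 2.14e-17, 3.65e-18 and 1.66e-21).

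TAGLN, or transgelin, an actin-gelling protein widely used as a marker of TGFB-treated mesenchymal cells (ENSG00000149591, chr11:117199370-117207464, plus strand), had the widest range of the panel. It was at 24.3, 20.6 and 20.5 CPM in PBS, 30.5, 23.1 and 17.7 CPM in T0 and 29.8, 26.6 and 29.6 CPM in OSM. It rose to 128, 147 and 149 CPM in TGFB, 197, 215 and 158 CPM in EGF and 88.8, 94.1 and 59.7 CPM in EGF+OSM. The highest groups were OSM+TGFB (278, 298 and 374 CPM), EGF+OSM+TGFB (647, 615 and 561 CPM) and EGF+TGFB (1129, 1209 and 803 CPM). PBS, T0 and OSM were low together, T0 overlapping both of its neighbours, and each of the 6 other groups stood clear of the group before it. TAGLN rose by 3.12 ± 0.20 after EGF (SE, log2 scale, edgeR adjusted p = 2.13e-11) and by 2.70 ± 0.20 after TGFB (adjusted p = 1.28e-09). After OSM its difference was 0.40 (95% interval -0.00 to 0.79, adjusted p = 0.0982). With EGF+TGFB it rose 48.0-fold, 5.59 ± 0.23 on the log2 scale (adjusted p = 6.22e-15), and 5.76 without replicate 3 of that group.

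CALD1, caldesmon (ENSG00000122786, chr7:134744252-134970729, plus strand), changed with TGFB and little with EGF or OSM alone. It was at 303, 289 and 273 CPM in PBS, 307, 302 and 262 CPM in EGF, 329, 317 and 282 CPM in OSM and 344, 337 and 316 CPM in T0. It was at 556, 521 and 506 CPM in TGFB, 828, 797 and 593 CPM in EGF+TGFB, 715, 706 and 671 CPM in OSM+TGFB and 772, 694 and 616 CPM in EGF+OSM+TGFB. EGF+OSM was the lowest group at 252, 248 and 206 CPM. Every library with TGFB was above every library without it, and PBS, EGF, OSM and T0 overlapped in turn, as did the 3 combinations with TGFB. The rise after TGFB was 0.87 ± 0.10 (SE, log2 scale, edgeR adjusted p = 5.03e-07). After EGF the difference was 0.01 (95% interval -0.19 to 0.21) and after OSM 0.10 (-0.10 to 0.30), both uncalled. On top of TGFB, EGF raised CALD1 by 0.49 ± 0.10 and OSM raised it by 0.40 ± 0.10 (edgeR adjusted p of 0.000222 and 0.00196). The fall after EGF+OSM, by 0.29 ± 0.10 (adjusted p = 0.0139), lost its call without PBS replicate 1 or EGF+OSM replicate 3 (adjusted p up to 0.101).

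MYL9 (ENSG00000101335, chr20:36541497-36551447, plus strand) had a profile close to that of TAGLN. Its levels were 8.37, 6.82 and 7.63 CPM in PBS, 9.84, 8.02 and 7.83 CPM in OSM and 14.0, 9.98 and 10.1 CPM in T0. They were 19.3, 20.4 and 12.3 CPM in EGF+OSM, 39.8, 42.3 and 28.8 CPM in EGF and 39.7, 43.4 and 44.9 CPM in TGFB. OSM+TGFB held 67.4, 76.5 and 86.6 CPM, EGF+OSM+TGFB 126, 126 and 112 CPM and EGF+TGFB 225, 229 and 159 CPM. PBS overlapped OSM, T0 overlapped EGF+OSM and EGF overlapped TGFB, whereas the 3 highest groups were apart from each other. The log2 fold change was 2.29 ± 0.20 after EGF (SE, edgeR adjusted p = 1.51e-09), 2.49 ± 0.20 after TGFB (adjusted p = 2.87e-09) and 0.17 after OSM (95% interval -0.25 to 0.59, not called). EGF+TGFB raised MYL9 26.9-fold (4.75 ± 0.21, adjusted p = 1.68e-14).

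**Figure D2:**
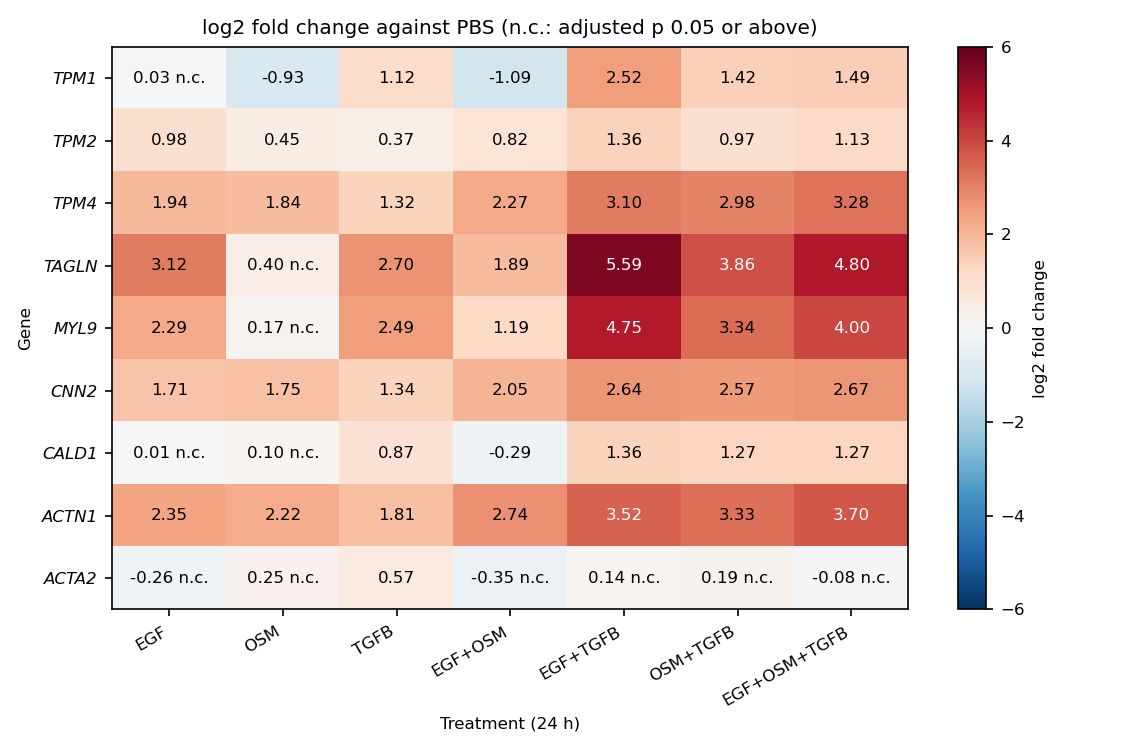
Log2 fold change against PBS of the 9 tested genes (rows) after the 7 treatments (columns) at 24 h, by color and printed value. The TAGLN row spans 0.40 (OSM) to 5.59 (EGF+TGFB), the TPM1 row changes sign between OSM (-0.93) and TGFB (1.12), and the ACTA2 row stays between -0.35 and 0.57.

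Over 24 h without a ligand (PBS against T0), 6 of the 9 tested genes fell and 1 rose, where 17.8% and 15.1% of all rows did (32.9% changed). TPM2 fell by 0.72 ± 0.061, CNN2 by 0.63 ± 0.054, ACTN1 by 0.62 ± 0.070 and TPM4 by 0.42 ± 0.079 on the log2 scale (SE, edgeR adjusted p from 5.51e-09 for TPM2 to 0.000207 for TPM4). Every PBS library of these 4 genes was below every T0 library. MYL9 also fell, by 0.58, and ACTA2 by 0.48, each at an adjusted p of 0.0353. Both calls were lost with no filter on low counts and without T0 replicate 1 or PBS replicate 3, the MYL9 call also without PBS replicate 2 and the ACTA2 call also without T0 replicate 2 (adjusted p up to 0.191 for MYL9 and 0.181 for ACTA2). TPM1 rose by 0.33 ± 0.096 (adjusted p = 0.0103), and its 3 PBS libraries were above its 3 T0 libraries. No called change of the panel reached 2-fold, where 5.21% of all rows did. The time in culture, the longer time without an added growth factor and any change of medium cannot be told apart here.

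The effect of TGFB was next measured within each setting of the other ligands. Adding TGFB raised 8 of the 9 tested genes and lowered 0 on top of EGF, on top of OSM and on top of EGF+OSM. Among all rows, 25.8% rose and 26.4% fell when TGFB was added to EGF (52.2% changed), 24.6% and 24.2% when it was added to OSM (48.8% changed), and 30.4% and 28.4% when it was added to EGF+OSM (58.8% changed). For the 8 genes, all 3 libraries with TGFB were above all 3 without it in each of these settings, and with TGFB alone against PBS. ACTA2 libraries were separated with TGFB alone against PBS and overlapped in the other 3 settings. TPM1 rose by 2.49 ± 0.099 on top of EGF, 2.35 ± 0.10 on OSM and 2.58 ± 0.10 on EGF+OSM (SE, log2 scale). Each of these was more than the 1.12 ± 0.096 seen with TGFB alone. ACTN1 went the other way, with 1.81 ± 0.072 for TGFB alone, 1.16 ± 0.070 on top of EGF, 1.102 ± 0.070 on OSM and 0.97 ± 0.069 on EGF+OSM. The effect on CNN2 was likewise 1.34 ± 0.054 for TGFB alone and 0.62 ± 0.053 with both. For EGF and for OSM, the tests of these differences are the departures from additivity that follow, and for EGF+OSM the difference was not tested. For TAGLN the effect of TGFB was 2.46 ± 0.19 with EGF and 3.47 ± 0.21 with OSM, and for MYL9 it was 2.46 ± 0.18 and 3.17 ± 0.20. CALD1 rose by 1.35 ± 0.10 with EGF and 1.56 ± 0.10 with EGF+OSM. ACTA2 gave 0.40 with EGF (95% interval 0.05 to 0.74), -0.05 with OSM (-0.40 to 0.29) and 0.27 with both (-0.08 to 0.62), none of them called. With the replicate block, the values with EGF and with both were called as rises. The value with EGF was also called with only the groups compared and without EGF replicate 1.

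**Figure D3:**
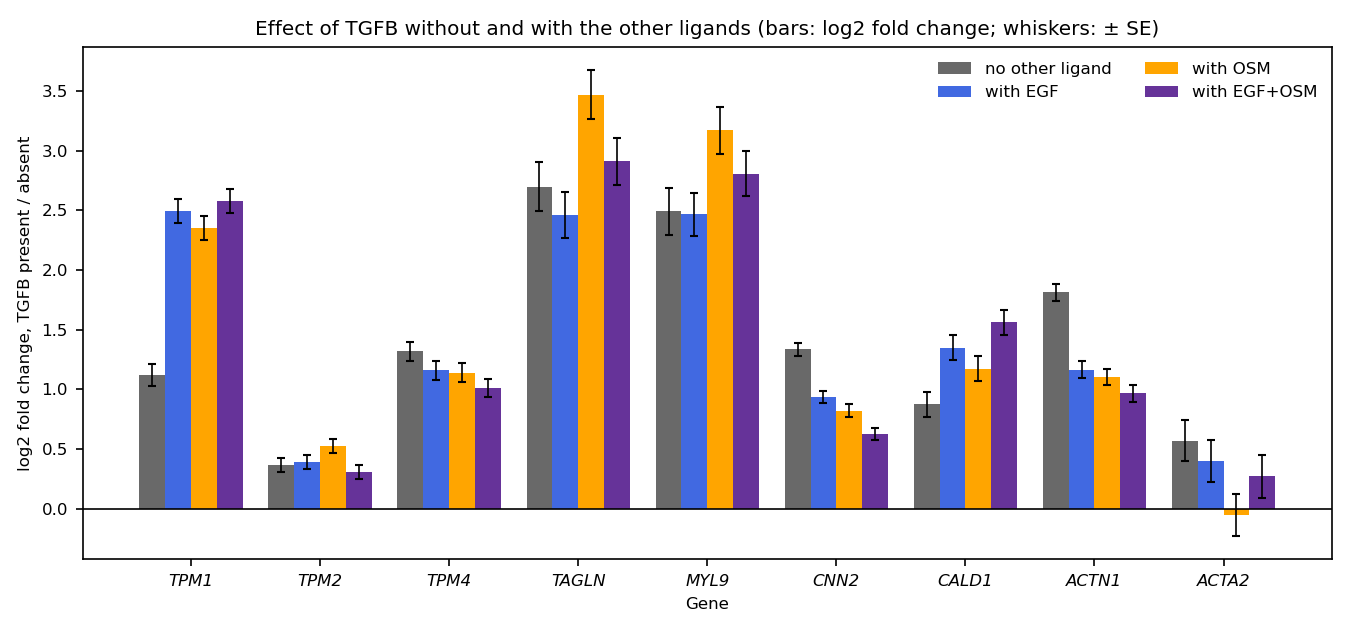
Log2 fold change of TGFB present against TGFB absent for the 9 tested genes, in cells with no other ligand, EGF, OSM or EGF+OSM; bars are estimates and whiskers are ± SE. TPM1 has 1 bar at 1.12 and the others between 2.35 and 2.58, ACTN1 has its highest bar, 1.81, with no other ligand, and the ACTA2 bar with OSM is at -0.05.

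Adding OSM had opposite effects on several genes depending on what else was present. On top of EGF, 3 genes rose and 4 fell, where 16.6% and 16.4% of all rows did (33.0% changed). TAGLN fell by 1.23 ± 0.19, TPM1 by 1.12 ± 0.099 and MYL9 by 1.09 ± 0.18 (SE, log2 scale, edgeR adjusted p of 2.94e-05, 4.41e-09 and 9.10e-05). CALD1 fell by 0.30, a call lost with no filter on low counts and without EGF replicate 1, EGF replicate 2 or EGF+OSM replicate 3 (adjusted p up to 0.161). The genes that rose were ACTN1 (0.38), CNN2 (0.34) and TPM4 (0.32). On top of TGFB, 8 genes rose and 0 fell, where 28.9% and 25.3% of all rows did (54.2% changed). TPM4 rose by 1.66 ± 0.080, ACTN1 by 1.51 ± 0.070, CNN2 by 1.24 ± 0.053, TAGLN by 1.16 ± 0.19 and MYL9 by 0.85 ± 0.17. On top of EGF+TGFB, 0 rose and 4 fell, where 12.8% and 12.0% of all rows did (24.8% changed). These were TPM1 (by 1.04 ± 0.094), TAGLN (by 0.78 ± 0.18), MYL9 (by 0.75 ± 0.17) and TPM2 (by 0.24 ± 0.060). Without EGF+TGFB replicate 3 these falls were 1.21, 0.98, 0.94 and 0.32, and CALD1 also fell, by 0.26 (adjusted p = 0.0350, beside -0.09 and uncalled with it). So TPM1, TAGLN and MYL9 were lower with OSM wherever EGF was present, whether or not TGFB was. All 3 were higher with OSM when TGFB was the only other ligand, TPM1 by 0.30 ± 0.094 (edgeR adjusted p = 0.00932). Just outside the threshold, ACTN1 was at 0.19 with OSM added to EGF+TGFB (adjusted p = 0.0501). It was called with the replicate block, with rows summed by symbol and without EGF+TGFB replicate 2, and was 0.08 without replicate 3. TPM2 was at -0.15 with OSM added to EGF (adjusted p = 0.0518) and was called with some other settings, among them DESeq2 and the replicate block.

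Added to OSM, EGF raised 6 genes and lowered 2, where 28.7% and 30.7% of all rows moved so (59.4% changed). TAGLN rose by 1.496 ± 0.20 and MYL9 by 1.02 ± 0.20 (SE, log2 scale), whereas ACTA2 fell by 0.59 ± 0.18 and CALD1 by 0.39 ± 0.10. The ACTA2 call was lost without OSM replicate 1 (adjusted p = 0.0611). Added to TGFB, it raised 8 and lowered 1, where 32.7% and 34.1% of all rows moved so (66.8% changed). TAGLN rose by 2.89 ± 0.20, MYL9 by 2.26 ± 0.18, TPM4 by 1.78 ± 0.080, ACTN1 by 1.70 ± 0.071 and TPM1 by 1.41 ± 0.095. ACTA2 was the gene that fell, by 0.44 ± 0.17 (edgeR adjusted p = 0.0315), a call lost with no filter on low counts, without TGFB replicate 1 and without EGF+TGFB replicate 3 (adjusted p up to 0.188). Without EGF+TGFB replicate 3 the value was -0.32 (adjusted p = 0.147). Added to OSM+TGFB, EGF raised 5 and lowered 0, where 25.2% and 24.9% of all rows moved so (50.1% changed). TAGLN (0.94 ± 0.18) and MYL9 (0.66 ± 0.17) led these. The smallest, TPM2 (0.16), lost its call without replicate 1 or 2 of OSM+TGFB or replicate 1 or 3 of EGF+OSM+TGFB (adjusted p up to 0.198), and TPM1 stayed at 0.07 (95% interval -0.12 to 0.25).

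Additivity was judged on the log2 scale: the fold changes of the single ligands against PBS were added up and subtracted from that of the combination, and what remains is the departure. A sum on this scale is a product of fold changes. A gene that falls short of it can still exceed the sum of its rises in CPM, which was not tested. For EGF+OSM, 7 of the 9 genes fell short of the sum and 0 exceeded it, where 21.9% and 14.6% of all rows did (36.5% departed). ACTN1 is an example: EGF gave 2.35, OSM 2.22 and the pair 2.74, a departure of -1.84 ± 0.099 (SE, edgeR adjusted p = 1.42e-12). For TAGLN the pair gave 1.89, less than EGF alone (3.12), a departure of -1.63 ± 0.28. For EGF+TGFB, 2 genes exceeded the sum and 2 fell short, where 12.3% and 15.4% of all rows did (27.7% departed). TPM1 had 0.03 after EGF and 1.12 after TGFB but 2.52 after both, a departure of 1.37 ± 0.13 (adjusted p = 1.76e-07), and 1.46 without EGF+TGFB replicate 3. TAGLN and MYL9, the genes with the largest rise in that pair, departed by -0.24 (95% interval -0.76 to 0.29) and -0.03 (-0.53 to 0.48), neither called. For OSM+TGFB, 1 gene exceeded the sum and 2 fell short, where 8.86% and 12.6% of all rows did (21.5% departed). TPM1 was the gene above the sum here too, by 1.23 ± 0.14: OSM alone lowered it, and the pair raised it to 1.42, above TGFB alone. TAGLN exceeded the sum by 0.77 at an adjusted p of 0.0502, just outside the threshold, and was called with 5 of the other settings tried. For all 3 ligands, 5 genes fell short (ACTN1 by 2.69, CNN2 by 2.12, TPM4 by 1.82, TAGLN by 1.42 and TPM2 by 0.66) and TPM1 exceeded the sum by 1.27 ± 0.19. Among all rows 25.0% fell short and 20.9% exceeded it (45.9% departed).

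**Figure D4:**
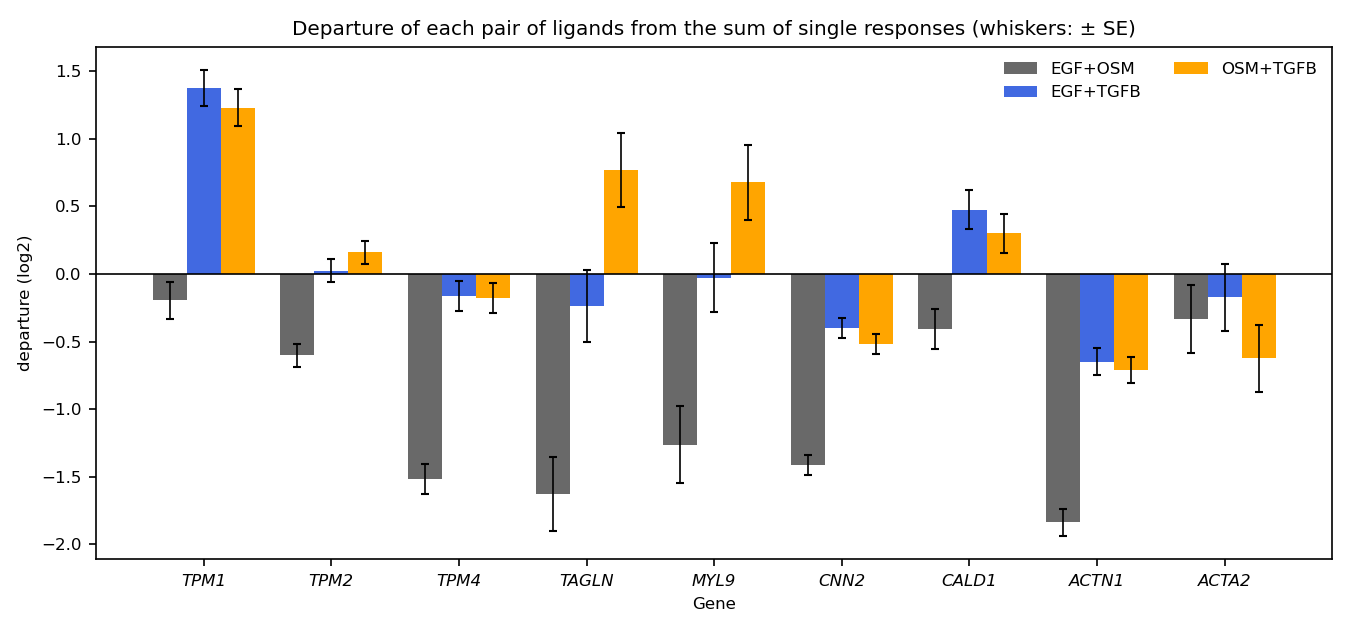
Departure from additivity (log2 scale) of the 9 tested genes for each of the 3 pairs of ligands; bars are estimates and whiskers are ± SE, and 0 is the sum of the single-ligand responses. TPM1 is the gene with bars above 1 (1.37 with EGF+TGFB and 1.23 with OSM+TGFB), and the EGF+OSM bars of ACTN1, TPM4, CNN2, TAGLN and MYL9 lie between -1.84 and -1.26.

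Across the 9 group means of log2 CPM, the panel held sets of genes with close profiles. Pearson's r was 0.996 for TPM4 with ACTN1, 0.994 for TPM4 with CNN2 and 0.997 for CNN2 with ACTN1. It was 0.987 for TAGLN with MYL9 and 0.936 for TPM1 with CALD1. Between these sets it ran up to 0.894 (TPM1 with MYL9), with 0.861 for TAGLN with TPM4, 0.605 for CALD1 with ACTN1 and 0.511 for TPM1 with ACTN1. ACTA2 had r between -0.32 and 0.35 with every other tested gene. These values describe 9 points that share their libraries and their scaling between genes, and carry no test.

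**Figure D5:**
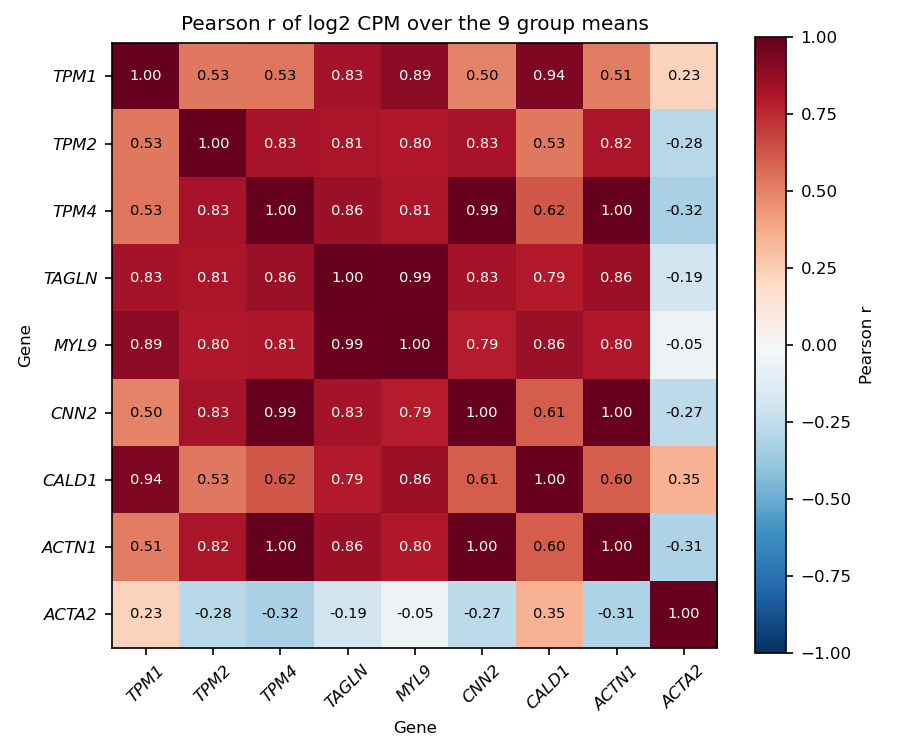
Pearson's r of log2 CPM over the 9 group means for each pair of the 9 tested genes, by color and printed value. The pairs among TPM4, CNN2 and ACTN1 are at 0.99 or above, TAGLN with MYL9 is at 0.99, and the ACTA2 row runs from -0.32 to 0.35.

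Of 14834 other rows with a symbol and a mean over 10 counts, the 5 whose 9 group means were most like the mean profile of the panel were TGFB1I1 (r = 0.997), CAPZB (0.990), CCDC167 (0.989), MYL6 (0.988) and CERS5 (0.984). TGFB1I1 encodes a focal adhesion adaptor, CAPZB a subunit of the actin capping protein and MYL6 the essential light chain of non-muscle myosin. TGFB1I1 was at 10.2 ± 0.979 CPM in PBS, 22.7 ± 0.376 in TGFB and 52.0 ± 3.46 in EGF+TGFB (SD, n = 3), and CAPZB at 181 ± 11.1, 244 ± 2.68 and 364 ± 28.2. The choice of measure decides most of this list: 1 of the 5 was kept with Spearman's rank correlation, 2 with r over 27 libraries and 1 with a profile that leaves out CNN1, the last chosen after seeing the data.

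Other genes of the contractile machinery were read from 4 lists. Of 12 actins and actin binders, 10 were tested, and 10 rose after TGFB and 10 after EGF+TGFB. Among all rows 18.9% rose and 14.7% fell after TGFB, and 35.0% and 36.3% after EGF+TGFB, and the counts of the other lists stand beside the same shares. SMTN, a smoothelin of stress fibres, rose from 11.6 ± 1.45 CPM in PBS to 40.6 ± 1.35 in TGFB and 222 ± 2.87 in EGF+TGFB (SD, n = 3). FLNA, the filamin that joins filaments into networks, rose from 371 ± 30.7 to 1266 ± 17.8 and 4136 ± 247 CPM. Of 8 myosin II genes, 6 rose and 0 fell after TGFB, and 5 rose and 1 fell after EGF+TGFB. MYH9, the main non-muscle heavy chain, went from 778 ± 16.7 CPM in PBS to 1485 ± 19.2 in TGFB and 4118 ± 392 in EGF+TGFB. MYLK, the kinase of the regulatory light chain, was at 3.13 ± 0.491, 4.88 ± 0.320 and 3.36 ± 0.990 CPM. After EGF alone SMTN was at 118 ± 4.91, FLNA at 2298 ± 85.9, MYH9 at 1957 ± 144 and MYLK at 2.44 ± 0.162 CPM. Of 12 focal adhesion and stress fibre genes, 10 rose and 0 fell after TGFB and 12 rose after EGF+TGFB, led after TGFB by PDLIM7 (26.8 ± 2.93 to 124 ± 6.45 CPM) and FHL2 (19.0 ± 0.560 to 51.4 ± 0.432 CPM).

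Of 4 genes of the SRF axis, 3 were tested, since MYOCD did not pass the filter. MRTFA rose from 82.6 ± 3.36 CPM in PBS to 139 ± 3.69 in TGFB, 0.75 ± 0.070 (SE, log2 scale, edgeR adjusted p = 6.76e-09), and SRF from 43.5 ± 0.168 to 54.0 ± 1.21 CPM, 0.31 ± 0.055 (adjusted p = 8.76e-05). After EGF 1 of the 3 rose and 2 fell, and after EGF+TGFB 2 rose and 1 fell, where 70.8% and 71.3% of all rows changed. The median log2 fold change of the tested genes after TGFB was 1.04 for actins and actin binders, 0.82 for focal adhesion genes, 0.35 for myosin II and 0.31 for the SRF axis, beside -0.01 over all rows. Outside the SRF axis, these rises were not particular to TGFB. In the same order the medians were 1.53, 0.87, 0.55 and -0.32 after EGF, beside -0.07 over all rows. After OSM they were 1.23, 0.64, 0.33 and -0.13, beside 0.00 over all rows.

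Some of these genes share sequence with a neighbour, which matters where reads could be split between them. TAGLN overlaps PCSK7 on the opposite strand over 2233 exonic bases, and 38.3% of the 31-base words of its protein-coding transcripts, read on either strand, also occur in PCSK7. PCSK7 was at 53.1 ± 5.29 CPM in PBS, 47.5 ± 2.29 in TGFB and 71.9 ± 0.323 in EGF+TGFB (SD, n = 3), a log2 fold change of 0.44 ± 0.062 in the last. ACTA2 shares 20.3% of its words with FAS, which lies on the opposite strand, and overlaps the antisense RNA ACTA2-AS1 over 1638 exonic bases. FAS rose from 30.8 ± 3.99 CPM in PBS to 47.7 ± 1.65 in EGF and 51.8 ± 5.33 in EGF+TGFB, and was at 30.7 ± 3.04 in TGFB, the group in which ACTA2 was highest. TPM1 overlaps its antisense RNA TPM1-AS over 2645 exonic bases. ACTN1 shares 1.26% of its words with its paralog ACTN4, which was at 529 ± 36.9 CPM in PBS and 822 ± 70.0 in EGF+TGFB. The kit marks strand, but whether the counting used it is not given in the sources used here. Counts of TAGLN, ACTA2 and TPM1 are uncertain to that extent, and those of TPM4 and CNN2 over smaller opposite-strand overlaps (803 and 338 exonic bases). On its own strand TAGLN overlaps ENSG00000280143 over 2498 exonic bases, and ACTA2 overlaps ENSG00000286116 over 401. Strand would not separate these. The comparison of words, which took protein-coding transcripts only, covered neither these nor the antisense RNAs ACTA2-AS1 and TPM1-AS.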

How the data were processed

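RNA from 27 MCF10A libraries was sequenced after a TruSeq Stranded mRNA preparation, per the labels' protocols. The deposited table holds estimated counts per gene, whole as deposited, so rounding changed nothing. Per the submitters' processing notes, the tools named are Trim Galore 0.4.3, cutadapt 1.10, FastQC 0.11.5, kallisto 0.46.2 and R 3.5.0, with the build hg38 (GRCh38.p5). The annotation and the strand setting are not given in the sources used here. No molecular identifiers are recorded, so counting error is a lower limit.

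The counts were tested with edgeR 4.0.16 in R 4.3.3: filterByExpr by group (16611 rows left), TMM scaling (factors 0.867 to 1.12), glmQLFit with robust estimation over all 27 libraries with a mean per group (18 residual degrees of freedom), and glmQLFTest for 21 contrasts, with p-values adjusted by Benjamini-Hochberg over all rows. CPM use TMM-scaled library sizes. The biological coefficient of variation was 10.1%, and replicates differed by more than sampling noise (chi-square over degrees of freedom 7.92 to 33.2). Each library counted as 1 replicate, although this spread cannot show whether the libraries came from separate cultures. Alternatives were other scalings, no filter, DESeq2 1.42.0, a replicate block, fits on fewer groups and leaving out each library.

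The members and lists were chosen with earlier results of these data known. All 10 members are named. In each list the 2 genes with the largest called rise and the 2 with the largest called fall after TGFB, at a mean of at least 1 CPM, are named, then the 5 rows most like the panel. A further list is not reported here. PCSK7, FAS and ACTN4 were added as genes that share sequence with members. Gene spans come from GENCODE v44 (GRCh38) by Ensembl identifier, and promoters from RefSeq.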

Additional observations from a re-analysis of the deposited data

Results flagged for a closer look

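These are the pairs of ligands in which the effect of 1 ligand on a gene differed with and without the other, by the departure from additivity (log2 scale, ± SE, edgeR quasi-likelihood test with Benjamini-Hochberg adjustment). For EGF+OSM the departure was -1.63 ± 0.28 for TAGLN, -1.26 ± 0.28 for MYL9 and -0.60 ± 0.086 for TPM2. It was -1.84 ± 0.099 for ACTN1, -1.51 ± 0.11 for TPM4 and -1.41 ± 0.075 for CNN2 (adjusted p from 1.22e-12 for CNN2 to 0.00133 for MYL9 over these 6 genes). CALD1 departed by -0.41 ± 0.15 (adjusted p = 0.0323), a call lost with upper-quartile scaling, with no filter on low counts and without any 1 of 6 libraries (EGF replicate 1 or 2, OSM replicate 1, PBS replicate 2 or 3, EGF+OSM replicate 3), with an adjusted p of up to 0.103.

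For EGF+TGFB the departure was 1.37 ± 0.13 for TPM1, -0.40 ± 0.075 for CNN2 and -0.65 ± 0.098 for ACTN1 (adjusted p of 1.76e-07, 0.000308 and 3.07e-05). CALD1 departed by 0.48 ± 0.15 (adjusted p = 0.0167), a call lost when only the groups compared were fitted and without EGF+TGFB replicate 1, EGF+TGFB replicate 2 or EGF replicate 3 (adjusted p up to 0.103). For OSM+TGFB it was 1.23 ± 0.14 for TPM1, -0.52 ± 0.075 for CNN2 and -0.71 ± 0.098 for ACTN1 (adjusted p of 1.57e-06, 3.05e-05 and 1.67e-05). On this log2 scale TPM1 was above the sum of the single ligands in both pairs with TGFB, and ACTN1 and CNN2 were below it in all 3 pairs. Sums of rises in CPM were not tested and can differ in direction.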

How the results depend on the processing

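Over 189 gene results and the alternatives that keep all libraries, 1406 values kept their direction and call, 65 lost a call, 36 gained one and 5 reversed. Leaving out a library gave 1315, 29, 11 and 22. The reversals were of uncalled values near 0: with upper-quartile scaling CALD1 (-0.0734) and TPM1 (-0.0530) after EGF, with no filter CALD1 for EGF added to OSM+TGFB (0.0165) and the MYL9 departure for EGF+TGFB (0.0218), and with only the groups compared the TPM2 departure for EGF+TGFB (-0.0284). Leaving out a library gave ranges of -0.296 to 0.0910 for TAGLN in PBS against T0, -0.0289 to 0.0804 for CALD1 and -0.0423 to 0.120 for TPM1 after EGF, and -0.159 to 0.0178 for ACTA2 with OSM added to EGF. They were -0.175 to 0.0828 for MYL9 and -0.0634 to 0.0519 for TPM2 in the departure of EGF+TGFB, -0.249 to 0.0617 for ACTA2 with TGFB added to OSM, -0.0929 to 0.0697 for CALD1 with EGF added to OSM+TGFB, -0.0749 to 0.0508 for CNN2 with OSM added to EGF+TGFB, and -0.220 to 0.0222 for ACTA2 with all 3 ligands. Counts of called genes without a library ranged from 8 to 9 for TGFB (9 with all libraries), 7 to 9 for EGF+OSM (8) and 5 to 7 for PBS against T0 (7). A call that also asks for 2-fold left 3 genes after OSM, 0 for PBS against T0, 5 for TGFB added to EGF+OSM, 3, 4 and 1 for OSM added to EGF, to TGFB and to EGF+TGFB, 2 and 0 for EGF added to OSM and to OSM+TGFB, and 1 and 1 for the departures of EGF+TGFB and OSM+TGFB. That departure of OSM+TGFB, with 3 genes called, had 5 with DESeq2, 6 with the replicate block and 6 with only the groups compared, and the cause was not tested. Upper-quartile scaling moved the median of all rows from -0.04 to -0.14 for EGF+OSM and from 0.00 to -0.10 for all 3 ligands, and changed the direction of no called gene result. Libraries with the same replicate number shared some structure: 25 of 27 libraries were closest to their own number. It was weak, with a median correlation of deviations of 0.04 (-0.05 to 0.16), and none of 36 pairs of groups had every correlation over 0.1. The main fit held no replicate block and so left this structure in the spread. With the replicate block 174 of 189 gene results kept their call, 15 gained one and 0 lost one. Most gains were of ACTA2: after EGF, OSM and EGF+OSM, and with TGFB added to EGF or to EGF+OSM. ACTA2 also gained with OSM added to TGFB, EGF added to OSM+TGFB and in the departures of OSM+TGFB and all 3 ligands. CALD1 gained in PBS against T0 and in the same departures. The rest were TPM2 (OSM added to EGF), ACTN1 (OSM added to EGF+TGFB) and TAGLN (departure of OSM+TGFB). Depth limits only CNN1, at 0 to 5 counts per library.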

Other observations

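Low libraries recurred across the panel. Besides EGF+TGFB replicate 3, EGF replicate 3 was the lowest of its group for 8 of the 9 tested genes, EGF+OSM+TGFB replicate 3 for 7, OSM+TGFB replicate 1 for 7 and EGF+OSM replicate 3 for 6. For TAGLN, EGF+OSM replicate 3 was at 59.7 CPM beside 88.8 and 94.1, and for MYL9 at 12.3 CPM beside 19.3 and 20.4. In OSM+TGFB the TAGLN libraries ran the other way, with replicate 3 highest at 374 CPM beside 278 and 298. In PBS the most even gene was CNN2, at 85.9, 87.2 and 87.2 CPM.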
